A study of Mus musculus with 19 samples.

Results

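The 8 genes described here are Fkbp5, Tsc22d3, Zbtb16, Sgk1, Klf9, Mt1, Mt2 and Cdkn1a, all known to be induced by glucocorticoids, the adrenal steroid hormones. They were taken by name from the 49585 genes of the count table, where all 8 were found and all 8 passed the filter on low counts. The lungs came from female Balb/c mice, 6 to 8 weeks old when used, that were either wild type (WT) or carried 1 inactive allele of Has2, a hyaluronan synthase gene (Has2+/-, heterozygous in every cell and backcrossed to Balb/c). Mice were sensitised to ovalbumin (OVA) with aluminum hydroxide and then received it through the nose over 8 weeks, and controls received saline by the same routes. Lungs were taken 24 h after the last challenge, and whole lung homogenate was sequenced from 5 Has2+/- OVA, 5 WT OVA, 4 Has2+/- saline and 5 WT saline mice, with 1 library per mouse. Library numbers follow the columns of the table: Has2+/- OVA has 15 to 19, WT OVA 10 to 14, Has2+/- saline 6 to 9 and WT saline 1 to 5. None of the 19 libraries is labelled as coming from a mouse given a glucocorticoid.

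Glucocorticoids bind the glucocorticoid receptor, which leaves its chaperones, enters the nucleus and raises the transcription of target genes by binding response elements in DNA. Blood levels of the hormone follow the time of day and rise with stress, and in the lung the hormone restrains inflammation and stimulates the epithelial sodium channel. Metallothioneins bind zinc and copper, and besides glucocorticoids they respond to metals through the factor MTF1.

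Levels are given as CPM, counts scaled to a common library total with the TMM factor of each library. The library totals ran from 4446534 to 7048676 counts, with a median of 5493263. A gene was called when the edgeR quasi-likelihood test gave an adjusted p (Benjamini-Hochberg over 14495 genes) under 0.01 and the fold change was above 1.2, the cutoffs of the study. In bulk lung RNA, fewer cells of a type and less RNA per cell cannot be told apart. Counts of Has2 itself were 3 to 9 in Has2+/- OVA, 2 to 10 in WT OVA, 2 to 7 in Has2+/- saline and 1 to 4 in WT saline libraries, too few to check the genotype labels.

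In a fit of all groups, Tsc22d3 and Klf9 were called lower and Sgk1 higher in OVA than in saline lungs of the same genotype. Zbtb16 was called lower in Has2+/- mice and not in WT mice, and the difference of these responses was -0.41 (standard error 0.452) and not called. Fkbp5, Cdkn1a, Mt1 and Mt2 were called in no comparison of that fit. The WT call of Sgk1 lay at the cutoff (edgeR adjusted p = 0.00995). A fit of the Has2+/- groups alone lost every call between those groups (edgeR adjusted p = 0.0113 to 0.0203). Called as well in a fit of the WT groups alone were Zbtb16, Fkbp5 and Cdkn1a. The counts that follow are from the fit of all groups. In WT OVA against WT saline mice 2 of the 8 genes were called lower (Tsc22d3 and Klf9) and 1 higher (Sgk1), where 9.95% of all tested genes were called lower, 1733 of 14495 genes higher, and 21.9% in either direction. In Has2+/- OVA against Has2+/- saline mice 3 were called lower (Tsc22d3, Zbtb16 and Klf9) and 1 higher (Sgk1), against 7.72%, 10.5% and 18.2% of all tested genes. Has2+/- OVA against WT saline mice, a comparison that shares its libraries with the others, had 3 genes called lower (Tsc22d3, Zbtb16 and Klf9) and 0 higher, against 9.56%, 10.9% and 20.4%. No gene of the 8 was called between the genotypes.

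**Figure D1:**
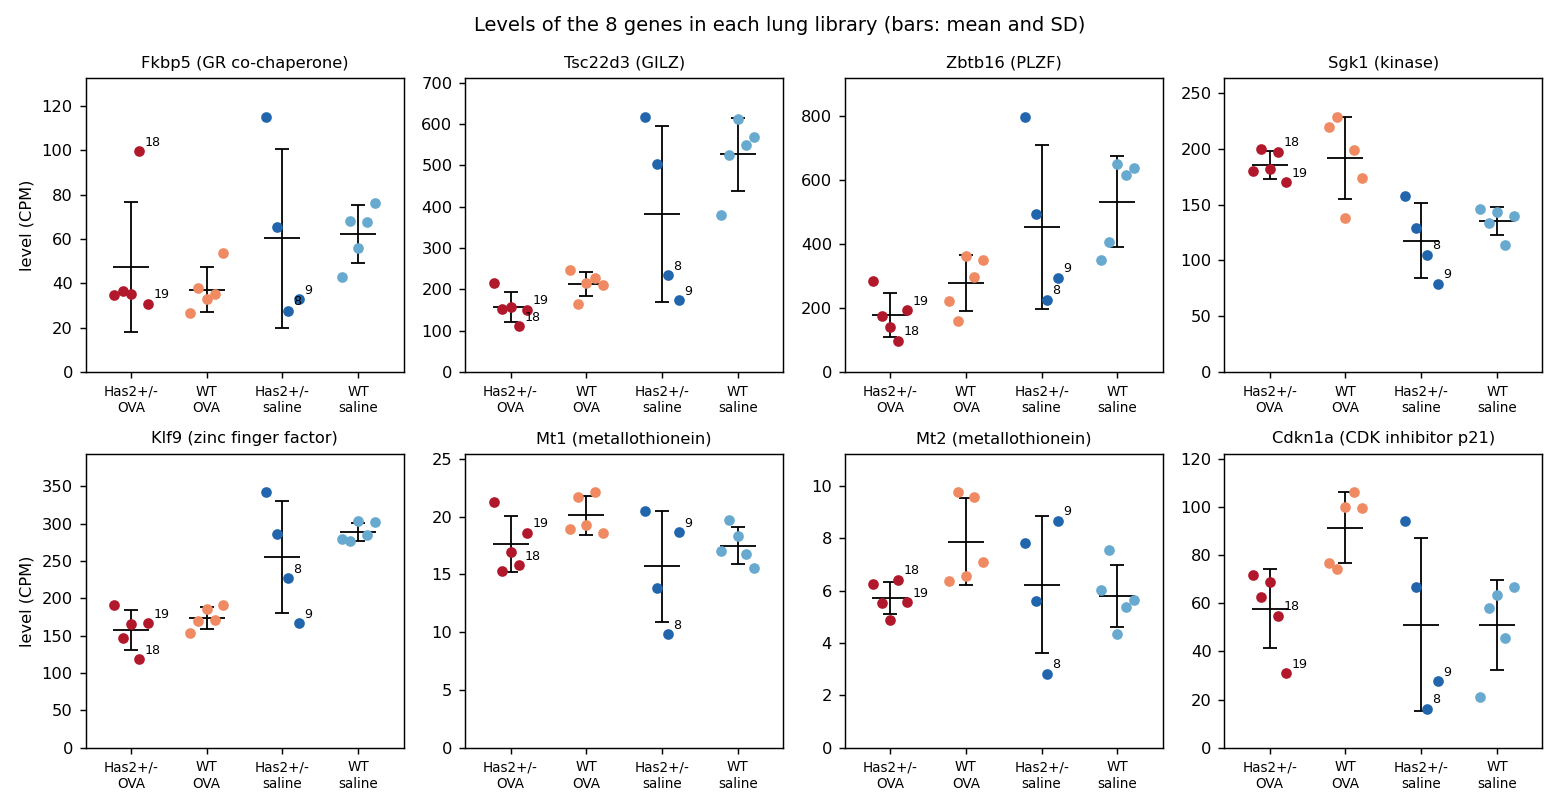
Level of each of the 8 genes (CPM, vertical axes from 0) in every lung library, with the mean and SD of the 4 groups. Tsc22d3 and Klf9 lie at 165 to 246 and 153 to 191 CPM in WT OVA lungs, below every WT saline lung, and Has2+/- saline libraries 8 and 9 lie below libraries 6 and 7 for Fkbp5, Tsc22d3, Zbtb16, Sgk1, Klf9 and Cdkn1a.

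Tsc22d3 (chrX:140539528-140600659, build mm10) encodes GILZ, a leucine zipper protein that mediates part of the anti-inflammatory action of glucocorticoids. It stood at 246, 165, 216, 227 and 211 CPM in WT OVA libraries, against 381, 524, 611, 548 and 569 CPM in WT saline libraries. Has2+/- OVA libraries had 215, 152, 156, 111 and 151 CPM, against 617, 503, 235 and 174 CPM in Has2+/- saline libraries. The WT groups did not overlap, whereas the Has2+/- groups did, because saline library 9 lay within the OVA range, with library 8 just above it. Between WT OVA and WT saline mice Tsc22d3 changed by -1.31 on the log2 scale (standard error 0.252, edgeR adjusted p = 0.000427). Between Has2+/- OVA and Has2+/- saline mice it was -1.29 (0.264, edgeR adjusted p = 0.00101). Against WT saline mice the Has2+/- OVA mice had -1.75 (0.256, edgeR adjusted p = 2.83e-05), and these groups did not overlap. The difference of the 2 OVA responses was 0.02 (0.364, edgeR adjusted p = 1.00), so no difference in response was detected at this spread. In a fit of the Has2+/- groups alone their call was lost (-1.28, edgeR adjusted p = 0.0136).

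Klf9 (chr19:23141226-23166911) encodes a zinc finger factor that binds GC-rich promoters and is induced directly by the glucocorticoid receptor. Its level was 153, 170.1, 185, 171 and 191 CPM in WT OVA libraries, against 279.9, 277, 303, 284 and 302 CPM in WT saline libraries. In Has2+/- OVA libraries it was 191, 147, 166, 118 and 167 CPM, against 342, 286, 227 and 167 CPM in Has2+/- saline libraries. WT saline mice were tightly grouped for this gene, with a mean of 289 ± 12.5 CPM (SD, n = 5), and no WT OVA mouse came near them. For Klf9 the log2 difference was -0.73 (standard error 0.141, edgeR adjusted p = 0.000427) in WT OVA against WT saline mice. The value was -0.70 (0.148, edgeR adjusted p = 0.00135) in Has2+/- OVA against Has2+/- saline mice, where library 9 overlapped the OVA range. The Has2+/- call was lost without saline library 6 (-0.51, edgeR adjusted p = 0.0105) and in a fit of the Has2+/- groups alone (-0.69, edgeR adjusted p = 0.0203).

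Zbtb16 (chr9:48654297-48836222) encodes PLZF, a transcriptional repressor that is strongly induced by glucocorticoids and also directs the development of innate-like lymphocytes. WT OVA libraries held 222, 159, 362, 297 and 351 CPM, against 350.0, 406, 648, 617 and 636 CPM in WT saline libraries. Has2+/- OVA libraries held 284, 174, 141, 98.5 and 194 CPM, against 797, 495, 225 and 294 CPM in Has2+/- saline libraries. Both pairs overlapped, in WT by WT saline library 1, which lay below 2 of the WT OVA libraries. The log2 fold change of -0.93 (standard error 0.312) in WT mice missed the cutoff (edgeR adjusted p = 0.0254), but passed it in a fit of the WT groups alone (-0.93, edgeR adjusted p = 0.00456) and without libraries 8, 9 and 19 (-0.93, edgeR adjusted p = 0.00947). In Has2+/- mice it was -1.35 (0.330, edgeR adjusted p = 0.0041), a call lost without saline library 6 (-0.92, edgeR adjusted p = 0.0373) and in a fit of the Has2+/- groups alone (-1.34, edgeR adjusted p = 0.0177). Against WT saline mice the Has2+/- OVA mice had -1.58 (0.318, edgeR adjusted p = 0.00071) with no overlap.

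Fkbp5 (chr17:28399095-28517524) encodes a co-chaperone of the glucocorticoid receptor that lowers its affinity for the hormone, and so closes a feedback loop. Its level was 26.5, 37.7, 33.1, 35.1 and 53.7 CPM in WT OVA libraries, against 43.0, 68.3, 56.1, 67.8 and 76.1 CPM in WT saline libraries. The Has2+/- OVA libraries had 34.6, 36.8, 35.3, 99.7 and 30.9 CPM, against 115, 65.4, 27.7 and 33.0 CPM in Has2+/- saline libraries. One WT OVA library overlapped the WT saline range, and Has2+/- OVA library 18 stood far above its group. For Fkbp5 neither log2 difference was called, at -0.74 in WT mice (standard error 0.353, edgeR adjusted p = 0.114) and -0.35 in Has2+/- mice (0.364, edgeR adjusted p = 0.507). A fit of the WT groups alone called the gene lower (-0.74, edgeR adjusted p = 0.00441). The Has2+/- value was 0.19 without saline library 6, -0.82 without OVA library 18 and -0.80 without libraries 8, 9 and 19 (edgeR adjusted p = 0.0841), and none of these was called.

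Sgk1 (chr10:21882184-21999903) encodes a serine/threonine kinase that keeps the epithelial sodium channel at the cell surface, and it was the 1 gene of the 8 called higher. RefSeq gives Sgk1 6 promoters, and the one in chr10:21993640-21993939 (plus strand, GRCm38.p6) is shown because it alone of the 6 holds the palindrome bound by pairs of glucocorticoid receptors. Of the other 5, 2 hold 1 arm each and 3 hold none. Which start was used in these lungs was not tested. Each printed promoter runs over 300 bases, 250 before and 50 after the start, and here capitals mark the arm AGAACA of the glucocorticoid response element on either strand (TGTTCT on the other). The full palindrome is this arm, any 3 bases, and the same arm inverted, and its 3 middle bases are in capitals too.

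Sgk1 promoter: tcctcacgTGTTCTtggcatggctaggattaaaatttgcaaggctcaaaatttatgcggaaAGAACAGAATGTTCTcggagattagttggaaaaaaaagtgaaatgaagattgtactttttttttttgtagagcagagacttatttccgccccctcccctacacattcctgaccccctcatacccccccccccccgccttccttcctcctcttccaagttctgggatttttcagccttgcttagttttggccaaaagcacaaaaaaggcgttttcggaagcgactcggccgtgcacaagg

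The palindrome lies 189 to 175 bases before the start and takes in 2 of the 3 arms found. Only 3 of 32851 RefSeq promoters of this length, or 0.00913%, hold these letters, whereas 19% hold an arm. Promoters were found for 7 of the 8 genes (not Zbtb16), 15 in all, and none of the other 6 genes searched had the palindrome. Tsc22d3 had 1 arm, 185 to 180 bases before the start in chrX:140600473-140600772 (minus strand), and the Fkbp5, Klf9 and Cdkn1a windows had none. A match is a description of the letters, and elements outside these windows were not searched.

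Sgk1 stood at 219.8, 229, 138, 199 and 174 CPM in WT OVA libraries, against 146, 134, 144, 114 and 139.6 CPM in WT saline libraries. Levels were 180.3, 199.9, 182, 197 and 169.8 CPM in Has2+/- OVA libraries, against 158, 129, 105 and 78.9 CPM in Has2+/- saline libraries. The Has2+/- groups did not overlap, and the WT groups overlapped by WT OVA library 12 alone. Sgk1 changed by 0.65 on the log2 scale (standard error 0.154, edgeR adjusted p = 0.00309) in Has2+/- mice and 0.50 (0.144, edgeR adjusted p = 0.00995) in WT mice. The WT value lay at the cutoff, and of the 10 fits that left out 1 WT library only that without library 12 kept the call. Without libraries 8, 9 and 19 the Has2+/- value was 0.41 and not called (edgeR adjusted p = 0.045), and in a fit of the Has2+/- groups alone it was 0.66 and not called (edgeR adjusted p = 0.0113).

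Cdkn1a (chr17:29090979-29100722) encodes p21, an inhibitor of cyclin-dependent kinases that is induced by p53 as well as by glucocorticoids. WT OVA libraries held 76.6, 74.4, 100.2, 106 and 99.5 CPM, against 21.2, 57.9, 63.6, 45.4 and 66.99 CPM in WT saline libraries. Has2+/- OVA libraries held 71.7, 62.6, 68.8, 54.8 and 30.9 CPM, against 94.2, 66.7, 16.2 and 27.8 CPM in Has2+/- saline libraries. Every WT OVA mouse lay above every WT saline mouse, whereas the Has2+/- saline mice spread over the whole range of the Has2+/- OVA mice and beyond it on both sides. The WT difference was 0.84 on the log2 scale (standard error 0.342) and was not called (edgeR adjusted p = 0.0646). It was called in a fit of the WT groups alone (0.84, edgeR adjusted p = 0.00895) and without libraries 8, 9 and 19 (0.84, edgeR adjusted p = 0.00322). The Has2+/- difference was 0.16 (0.366, edgeR adjusted p = 0.785), and the difference of the 2 responses was -0.68 (0.4997, edgeR adjusted p = 1.00).

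Mt1 (chr8:94179082-94180327) and Mt2 (chr8:94172664-94173568) are the metallothionein genes expressed in most tissues and lie next to each other. Their promoters are shown because the 2 genes varied together between mice. Capitals mark the core of the metal response element bound by MTF1, TGCACNC or TGCGCNC on either strand, which 25.7% of RefSeq promoters hold. The part of these elements in the shared variation was not tested.

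Mt1 promoter, chr8:94178839-94179138, plus strand: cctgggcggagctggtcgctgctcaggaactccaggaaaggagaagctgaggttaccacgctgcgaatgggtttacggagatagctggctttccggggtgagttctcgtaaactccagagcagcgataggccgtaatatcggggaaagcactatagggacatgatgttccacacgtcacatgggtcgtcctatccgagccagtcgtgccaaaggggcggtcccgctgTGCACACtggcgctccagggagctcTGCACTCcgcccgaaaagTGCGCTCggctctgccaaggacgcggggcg

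Mt2 promoter, chr8:94172368-94172667, plus strand: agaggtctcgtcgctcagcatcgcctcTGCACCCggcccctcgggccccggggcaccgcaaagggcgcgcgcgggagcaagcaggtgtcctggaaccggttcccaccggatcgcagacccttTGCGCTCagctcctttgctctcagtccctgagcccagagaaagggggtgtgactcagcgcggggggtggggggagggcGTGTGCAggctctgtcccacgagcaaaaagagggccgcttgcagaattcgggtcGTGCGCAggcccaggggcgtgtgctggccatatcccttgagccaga

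The Mt1 window held 3 cores, all within 26 bases of the start, and the Mt2 window held 4, from 223 bases before the start to 10 after it. The Mt2 window also had the antioxidant response element core TGACNNNGC, which 12.4% of promoters hold, 79 to 71 bases before the start. Mt1 averaged 20.1 ± 1.67 CPM in WT OVA and 17.5 ± 1.59 CPM in WT saline mice (SD, n = 5 each), and 17.6 ± 2.41 CPM in Has2+/- OVA (n = 5) and 15.7 ± 4.80 CPM in Has2+/- saline mice (n = 4). Neither difference passed the test, with log2 fold changes of 0.20 (standard error 0.148, edgeR adjusted p = 0.311) in WT and 0.17 (0.159, edgeR adjusted p = 0.473) in Has2+/- mice. Mt2 was covered by only 17 to 55 counts per library. It averaged 7.87 ± 1.66 CPM in WT OVA and 5.80 ± 1.17 CPM in WT saline mice, and 5.73 ± 0.613 CPM in Has2+/- OVA and 6.24 ± 2.61 CPM in Has2+/- saline mice. Its log2 fold change of 0.44 (0.226, edgeR adjusted p = 0.143) in WT mice and of -0.11 in Has2+/- mice did not pass. Mt1 and Mt2 are short and alike in sequence, and how reads that fit both were counted is not given in the sources used here. Of the other family members, Mt3 had 0 to 8 counts per library and Mt4 had 0 in all 19.

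**Figure D2:**
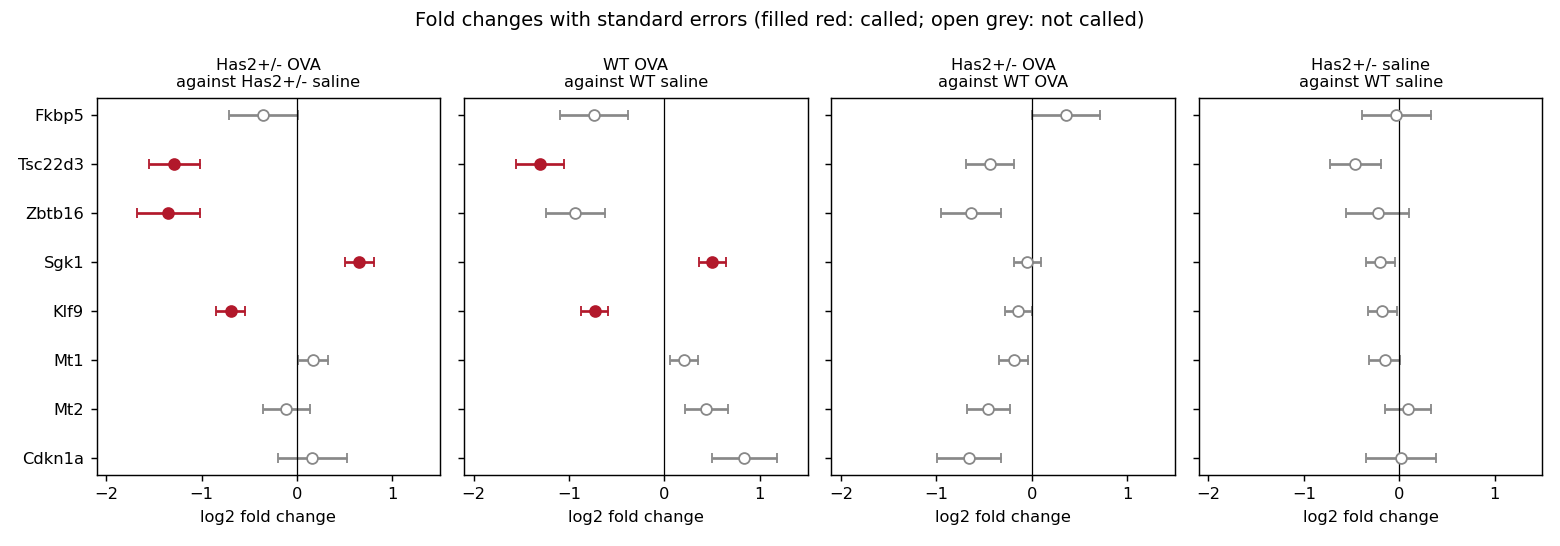
Log2 fold change of each of the 8 genes (horizontal axes, bars are standard errors) for OVA against saline in Has2+/- and WT mice and for Has2+/- against WT mice under OVA and saline. Filled symbols are called: Tsc22d3 at -1.29 in Has2+/- and -1.31 in WT mice, Klf9 at -0.70 in Has2+/- and -0.73 in WT mice, Sgk1 at 0.65 in Has2+/- and 0.50 in WT mice, and Zbtb16 in Has2+/- mice at -1.35, whereas both genotype panels hold open symbols only.

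Between the genotypes under OVA, 7 of the 8 genes had a negative fold change, as had 7100 of 14495 tested genes. Several of the 8 genes varied together between mice, so these signs are not independent. None of the 8 was called, as 0% of all tested genes were (edgeR, with 1120 genes at an unadjusted p under 0.05, and 8 genes but none of these 8 by DESeq2). Cdkn1a stood at 30.9 to 71.7 CPM in Has2+/- OVA mice, against 74.4 to 106 CPM in WT OVA mice, so that the groups did not overlap. The log2 difference was -0.66 (standard error 0.339) with an edgeR adjusted p of 0.652. Zbtb16 had -0.64 (0.314, edgeR adjusted p = 0.647), Mt2 -0.46 (0.225, edgeR adjusted p = 0.647) and Tsc22d3 -0.44 (0.252, edgeR adjusted p = 0.690). Klf9 and Sgk1 differed by less, at -0.14 (0.141) and -0.05 (0.143), and Fkbp5 had 0.35 (0.355), or -0.12 without library 18.

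Between the genotypes under saline none of the 8 was called either, as 0% of all tested genes were (edgeR, with 1006 genes at an unadjusted p under 0.05, and 1 gene by DESeq2). The Has2+/- saline mice spread widely, and Tsc22d3 had -0.46 (0.264) and Zbtb16 -0.23 (0.328). Without libraries 8, 9 and 19 the signs of 5 genes turned, with 0.09 for Tsc22d3, 0.28 for Zbtb16, 0.12 for Klf9, 0.08 for Sgk1 and 0.54 for Fkbp5. The interaction of genotype and OVA called 0 genes (edgeR, 594 genes at an unadjusted p under 0.05, 0 by DESeq2).

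Libraries 8 and 9, from Has2+/- saline mice, and library 19, from a Has2+/- OVA mouse, stood apart in genes of the circadian clock. Dbp, a clock output factor, was at 132 CPM in library 19 and at 7.21 to 30.2 CPM in the other OVA libraries, and at 191 and 196 CPM in libraries 8 and 9 and 10.6 to 115 CPM in the other saline libraries. Nr1d1, a repressor in the clock loop, was at 308 and 296 CPM in libraries 8 and 9 and at most 121 CPM in the other saline libraries. Libraries 8 and 9 were also the 2 lowest of the 9 saline libraries for Fkbp5, Tsc22d3, Zbtb16, Klf9 and Sgk1. Library 9 stood apart in cell type markers as well. Its 7 airway epithelial markers summed to 21975 CPM, most of it from Scgb1a1 at 18098 CPM, against 10079 to 11487 CPM in the other Has2+/- saline libraries. Its cardiac muscle markers summed to 1236 CPM, against 660 to 821 CPM. Its endothelial markers summed to 3089 CPM, the lowest of the 9 saline libraries. The part of this makeup in the levels of the 8 genes was not tested.

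The clock genes moved with OVA as well. In WT OVA against WT saline mice 4 of 17 clock genes passed as higher and 8 as lower, with a median log2 fold change of -0.94 beside 0.00 over all genes, and 1 higher and 7 lower in Has2+/- mice. Among those called lower in WT mice were Cry2 (-0.94), Hlf (-2.30), Tef (-1.77) and Cry1 (-0.97). Those called higher in WT mice were Npas2 (2.62), Arntl (2.11), Nfil3 (1.42) and Bhlhe41 (1.41), so the median is over genes that moved in both directions. Of all tested genes 9.95% were called lower and 1733 of 14495 higher in WT mice, and 7.72% lower and 10.5% higher in Has2+/- mice. Per2, a repressor of the clock, stood at 34.4 to 104 CPM in WT OVA and 313 to 388 CPM in WT saline libraries, with no overlap. Without libraries 8, 9 and 19 the log2 fold change of Tsc22d3 was -1.30 in WT and -1.82 in Has2+/- mice, and that of Klf9 -0.72 and -1.01. None of these libraries is from a WT mouse, so the WT values could hardly move. Libraries 8 and 9 were the lowest saline libraries for both genes, so leaving them out had to make the Has2+/- values more negative. These fits therefore cannot show whether the differences depend on the clock. The part of clock phase or collection time in the differences between OVA and saline was not tested.

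**Figure D3:**
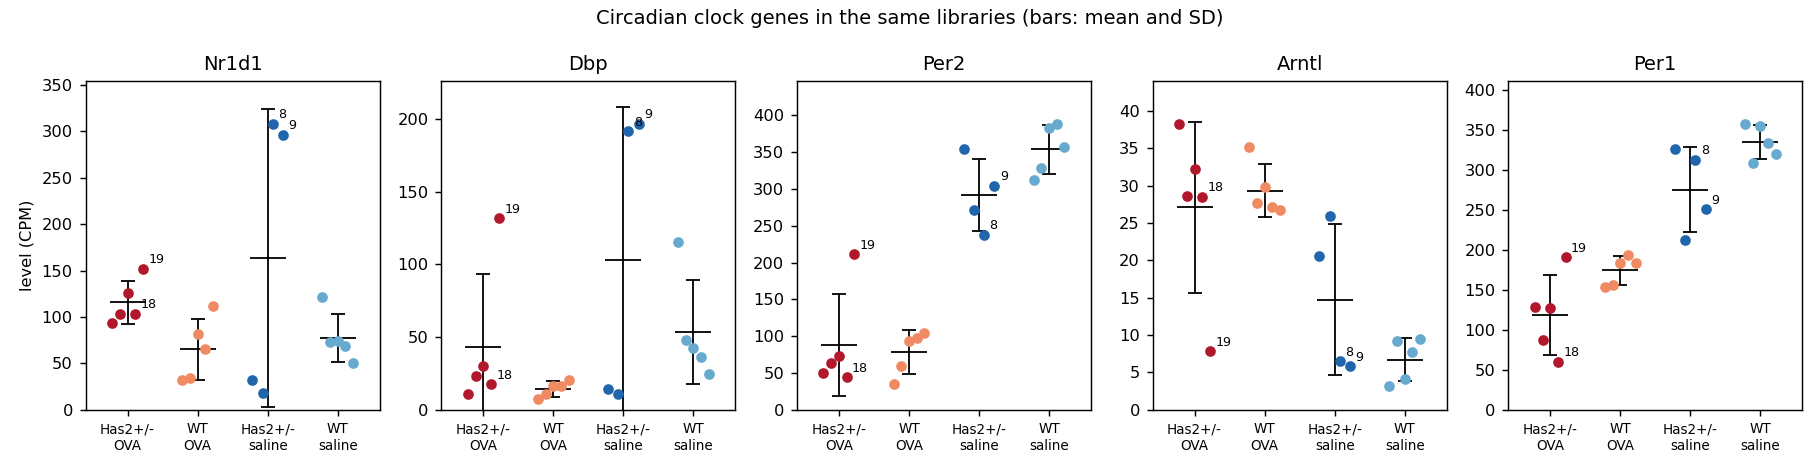
Levels of 5 clock genes (CPM) in every library, with the mean and SD of each group (bars that would pass below 0 end at the axis). Libraries 8, 9 and 19 are high for Dbp, at 191, 196 and 132 CPM, and low for Arntl, at 6.51, 5.86 and 7.86 CPM, against the other libraries of their own groups.

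Between mice of one group, several pairs of the 8 genes varied together. Deviations of log2 CPM from the group mean were correlated over all 19 libraries for the 28 pairs of the 8 genes. For each pair, r was also taken without the libraries farthest from the median of a single gene (Tsc22d3, Zbtb16, Mt1 or Fkbp5 below). Tsc22d3 and Zbtb16 had r = 0.81 and rho = 0.77 (permutation p = 0.00049 and 0.00184, adjusted 0.0137 and 0.0207). Without libraries 6 and 9, which lay farthest from the median for Tsc22d3, r was 0.81. Tsc22d3 and Klf9 had r = 0.85 and rho = 0.66 (permutation p = 0.00178 and 0.0367, adjusted 0.0249 and 0.171), with r = 0.67 without those libraries. Zbtb16 and Klf9 had r = 0.76 and rho = 0.84 (permutation p = 0.00304 and 0.00014, adjusted 0.0279 and 0.00392), with r = 0.73 without libraries 8 and 18. Without libraries 8, 9 and 19 these 3 values of r were 0.83, 0.65 and 0.77. Cdkn1a with Tsc22d3 had r = 0.77 and rho = 0.81 (permutation p = 0.0160 and 0.00222, adjusted 0.0748 and 0.0207), with r = 0.73 without libraries 6 and 9. Cdkn1a with Zbtb16 had r = 0.69 and rho = 0.68 (permutation p = 0.0101 and 0.00885, adjusted 0.0566 and 0.0620), with r = 0.66 without libraries 8 and 18.

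Mt1 and Mt2 varied together too, with r = 0.81 and rho = 0.64 (permutation p = 0.00398 and 0.0132, adjusted 0.0279 and 0.0737), but r was 0.60 without libraries 6 and 8 and 0.57 without libraries 8, 9 and 19. Fkbp5 and Tsc22d3 had r = 0.40 (rho = 0.39, permutation p = 0.310 and 0.239, adjusted 0.555 and 0.586). That value was 0.74 without library 18 and -0.28 without libraries 8, 9 and 19, so it rests on those libraries. Fkbp5 with Cdkn1a had r = 0.67 and rho = 0.59 (permutation p = 0.0250 and 0.0563, adjusted 0.0998 and 0.197), with r = 0.73 without libraries 6 and 18 but 0.28 without libraries 8, 9 and 19. Sgk1 had no pair with an adjusted permutation p under 0.05.

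**Figure D4:**
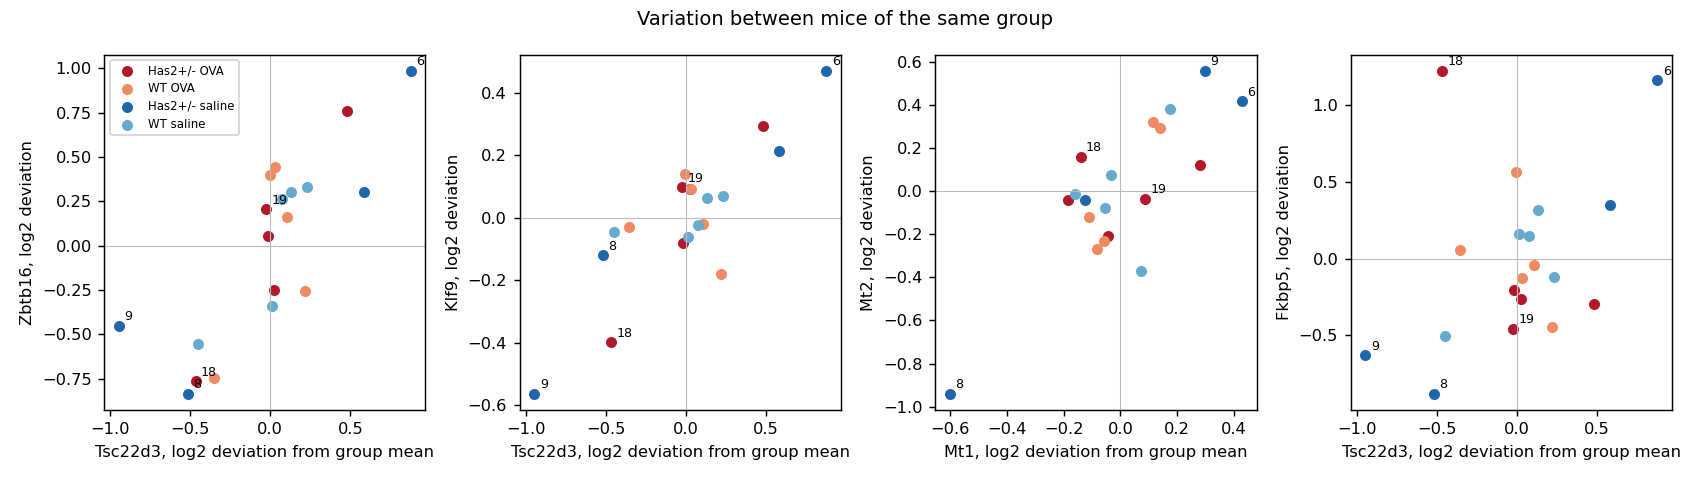
Log2 deviation of each library from its group mean, for Zbtb16, Klf9 and Fkbp5 against Tsc22d3 and for Mt2 against Mt1, coloured by group. Zbtb16 and Klf9 follow Tsc22d3 (r = 0.81 and 0.85), Mt2 follows Mt1 (r = 0.81), and library 18 lies off the trend in the Fkbp5 panel.

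The genes whose deviations were most like those of each gene were sought among 13770 tested genes over the 19 libraries. Closest to Tsc22d3 were Il6ra (r = 0.94), Rgcc (0.93) and Fam107a (0.92), and closest to Klf9 were Hif3a (0.89), Ace (0.89) and Carmil1 (0.88). Zbtb16 was followed by Slc10a6 (0.87), Hdac4 (0.87) and Sorbs3 (0.87), Sgk1 by Ostm1 (0.88), Inpp5b (0.87) and Mgll (0.87), and Cdkn1a by Dapk1 (0.92), Adamts15 (0.91) and Tspan11 (0.91). Fkbp5 had Nr1h3 (0.84), Aqp11 (0.82) and Chek2 (0.81), Mt1 had Nrm (0.84), Mt2 (0.81) and Col9a3 (0.78), and Mt2 had Dbi (0.82), Dhrs4 (0.82) and Gpd1 (0.81). These are descriptions over libraries that share groups and depth, and the 3 highest of many were taken.

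Of 30 other genes known to be induced by glucocorticoids, 28 were tested, and 11 were called lower and 3 higher in WT OVA against WT saline mice. In that comparison 9.95% of all tested genes were called lower and 1733 of 14495 higher. The median log2 fold change of the 28 genes was -0.44 beside 0.00 over all genes. In Has2+/- OVA against Has2+/- saline mice 8 were called lower and 3 higher, with a median of -0.38 beside -0.01. The shares of all tested genes were 7.72% lower and 10.5% higher there. The 3 called higher lie near the share over all genes in both genotypes. Scnn1a and Scnn1b, subunits of the epithelial sodium channel that Sgk1 regulates, had -0.90 and -0.78 in WT mice, a direction opposite to that of Sgk1. The metabolic factor Klf15 had -1.24 and the secreted protein gene Crispld2 had -1.44 there. Lcn2, Gadd45g and Anxa1 were called higher in both genotypes (1.44, 0.89 and 0.76 in WT mice). Between the genotypes 0 of the 28 were called under OVA, with a median of -0.14 and 23 values below 0, and 0 under saline, with a median of -0.28 and 24 values below 0. Over all tested genes 7100 of 14495 values were below 0 under OVA and 7040 under saline, with medians of 0.004 and 0.006. Among the saline libraries the summed level of the 30 genes was lowest in 8 and 9, at 2890 and 2616.5 CPM, against 3426 to 4030 CPM in the others. The part of these libraries in the signs was not tested.

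**Figure D5:**
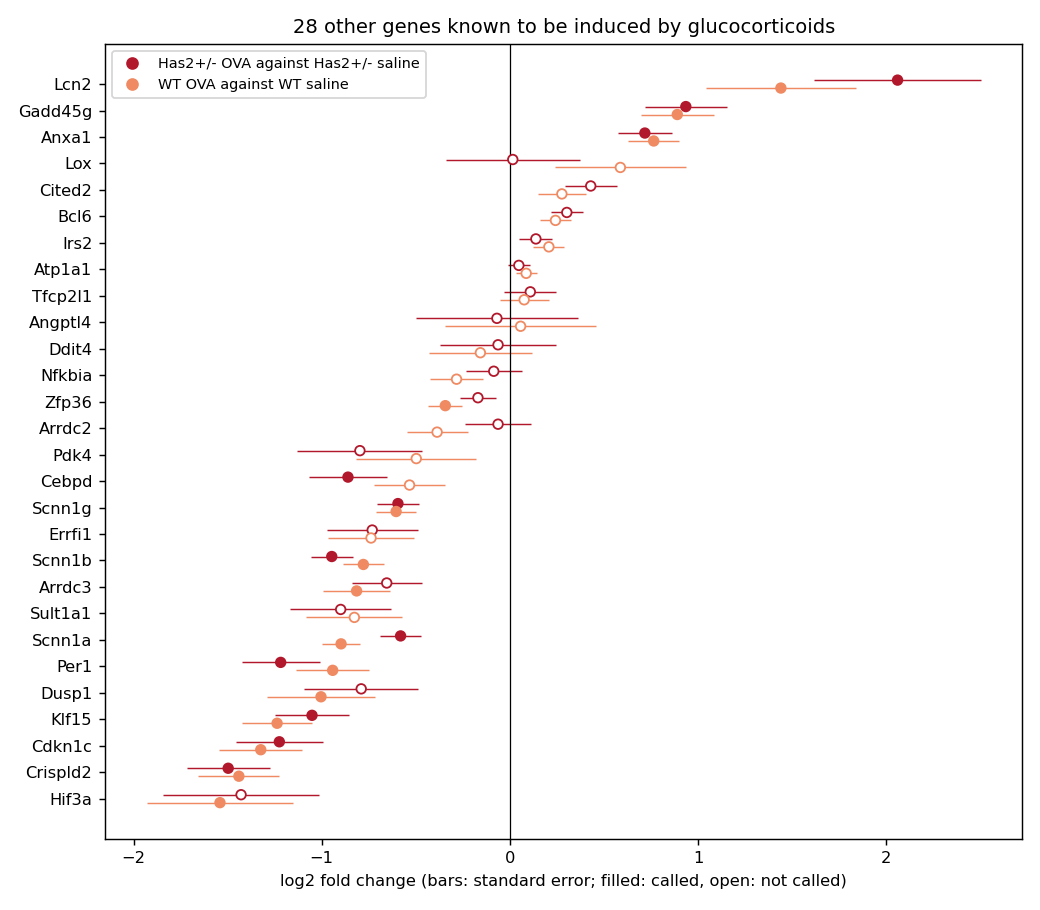
Log2 fold change (horizontal axis, bars are standard errors) of the 28 other genes known to be induced by glucocorticoids, for OVA against saline in Has2+/- and WT mice, with called genes filled. Crispld2, Cdkn1c, Klf15, Per1, Scnn1a, Scnn1b and Scnn1g are called lower and Lcn2, Gadd45g and Anxa1 higher in both genotypes.

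Of 15 genes for receptors, chaperones, coregulators and hormone enzymes, 3 were called lower in WT mice, where 9.95% of all tested genes were, and 1 in Has2+/- mice, where 7.72% were, and 0 were called higher. The Has2+/- count lies near the share over all genes. Hsd11b1, the enzyme that regenerates active hormone in tissue, averaged 33.2 ± 2.93 CPM in WT OVA and 74.6 ± 5.92 CPM in WT saline mice (SD, n = 5 each; log2 fold change -1.17, edgeR adjusted p = 1.30e-05). It was called lower in Has2+/- mice as well (-0.84, edgeR adjusted p = 0.000869). Nr3c1, the glucocorticoid receptor, had -0.46 (edgeR adjusted p = 0.000256) in WT mice, and Nr3c2, the mineralocorticoid receptor, had -0.61 (edgeR adjusted p = 0.00108). Neither receptor gene was called in Has2+/- mice, and the interaction of genotype and OVA called 0 of the 15 genes.

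Genes of zinc handling and of the NRF2 response moved in both directions while Mt1 and Mt2 were not called. Of 17 tested, 5 were called higher and 2 lower in WT mice, and 2 higher and 2 lower in Has2+/- mice. The cystine transporter gene Slc7a11 had 3.75 and the heme oxygenase gene Hmox1 1.14 in WT mice, and the zinc exporter gene Slc30a1, itself a target of MTF1, had -0.53. Of 21 p53 targets and inhibitors of cyclin-dependent kinases, Trp53inp1 (0.70), Bax (0.51) and Mdm2 (0.28) were called higher in WT mice and 0 lower, and 2 higher and 1 lower in Has2+/- mice. Relatives of the 8 genes numbered 25, of which 4 passed as higher and 8 as lower in WT mice, among them Klf7 (-0.59), Tsc22d1 (-0.58), Fkbp2 (0.84) and Fkbp9 (-0.44). Among 14 immediate-early genes, 2 passed as higher and 2 as lower in WT mice. Of all tested genes 21.9% were called in either direction in WT mice and 18.2% in Has2+/- mice, and the 3 of 21 p53 targets and inhibitors called in each genotype are no larger a share than that.

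Cell type markers moved with OVA beside these genes. The 6 macrophage markers summed to 2512 to 4696 CPM in Has2+/- OVA and 2812 to 5186 CPM in WT OVA lungs, against 264 to 458 CPM in Has2+/- saline and 277 to 858 CPM in WT saline lungs, and 5 of the 5 tested were called higher in both genotypes. Chil3, at 51.6 to 4266 CPM over all libraries, made up much of these sums. Its log2 fold change was 4.27 in WT mice, against 2.47 for Cd68, 2.44 for Itgax, 1.07 for Adgre1 and 0.65 for Mrc1. The 6 B and plasma cell markers summed to 1907 to 2806 CPM in Has2+/- OVA and 2104 to 3005 CPM in WT OVA lungs, against 276 to 380.0 CPM in Has2+/- saline and 274 to 352 CPM in WT saline lungs, and 6 of 6 were called higher. Jchain, at up to 2447 CPM, made up much of these sums, with a log2 fold change of 5.04 in WT mice against 0.45 to 4.21 for the others. Of 6 endothelial markers, 2 were called lower in both genotypes, with sums of 2885 to 3842 CPM in Has2+/- OVA and 3127 to 4074 CPM in WT OVA lungs, against 3089 to 4915 CPM in Has2+/- saline and 4007 to 4771 CPM in WT saline lungs. Of 7 airway epithelial markers, 3 were called higher and 2 lower in both genotypes, with sums of 10802 to 13921 CPM in Has2+/- OVA and 9650 to 12430 CPM in WT OVA lungs, against 10079 to 21975 CPM in Has2+/- saline and 10371 to 11692 CPM in WT saline lungs. Of 5 cardiac muscle markers, 5 were called lower in Has2+/- and 1 in WT mice, with sums of 302 to 558 CPM in Has2+/- OVA and 265 to 597 CPM in WT OVA lungs, against 660 to 1236 CPM in Has2+/- saline and 510.1 to 917 CPM in WT saline lungs. Alveolar epithelial markers, which define the tissue, were high in every library (a sum of 12371 CPM or more). Of the 8, 2 were called higher (Sftpd 0.67 and Abca3 0.47) and 2 lower (Hopx -0.76 and Ager -0.45) in WT mice. In Has2+/- mice 4 were called higher and 2 lower. Of 4 tested eosinophil markers, 3 were called higher in WT and 2 in Has2+/- mice. The 5 listed summed to 13.4 to 33.6 CPM in Has2+/- OVA and 24.0 to 44.7 CPM in WT OVA lungs. In saline lungs the sums were 7.59 to 15.2 CPM. Of 4 tested neutrophil markers 1 was called higher, and of 8 T and innate lymphoid markers 1 higher and 1 lower, in both genotypes. Of 7 fibroblast and smooth muscle markers, 2 were called lower in Has2+/- and 0 in WT mice. Over all tested genes 21.9% were called in either direction in WT mice and 18.2% in Has2+/- mice. Marco, Ccr3, Epx, Prg2 and Ly6g were at 0 in 2, 1, 7, 5 and 11 libraries. The part of these cells in the levels of the 8 genes was not tested.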

How the data were processed

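Paired reads (36 bases) of whole lung RNA had been aligned to mm10 by the authors in CLC Genomics Workbench 10.1.1, and their deposited counts of 49585 genes were used (26540 had none in any library, and 0 pairs of libraries were identical). The labels name depletion of ribosomal RNA, the series description an mRNA kit, and the sources do not settle this. Columns name groups but no replicate, so libraries carry the running number of their column. A further 38 columns with normalized or transformed values of single libraries, and the authors' own p-values and fold changes, were not used.

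Counts were fitted with edgeR 4.0.16 in R 4.3.3 (TMM, filterByExpr with 10 counts, 15 in total and share 0.7, 1 mean per group, 15 residual degrees of freedom, common coefficient of biological variation 0.138). Tests were two-sided and adjusted by Benjamini and Hochberg over 14495 genes. CPM use the library total times the TMM factor. Correlations used 100000 permutations within groups and log2 CPM with a prior count of 2. Alternatives were RLE factors, 2 other filters, only the groups compared, DESeq2 1.42.0, an adjusted p under 0.05, and libraries left out. Leaving out library 18 from the correlations was chosen after seeing the data. So was leaving out together the libraries that stood apart in genes of the circadian clock, in the fits and in the correlations. The procedure was tested on simulated data. Gene starts in the table count from 0 and were raised by 1, and promoters are from the RefSeq table of GRCm38.p6. The text names the 8 genes, for each the 3 most alike, of every other list up to 4 genes of smallest p in WT OVA against WT saline mice, and Has2. Genes named beyond these (Anxa1, Gadd45g, Lcn2, Per1, Per2, Dbp, Nr1d1, Arntl, Npas2, Nfil3, Bhlhe41, Cdkn1c, Scnn1g, Mt3, Mt4, Marco, Mrc1, Scgb1a1, Epx, Ly6g) were chosen after their values were seen. The 8 genes and all lists were chosen with earlier results of these data known. Python 3.11.15 with pandas 2.3.3 and matplotlib 3.10.9 made the figures.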

Additional observations from a re-analysis of the deposited data

Results flagged for a closer look

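Fkbp5 in Has2+/- OVA library 18 lay far from the rest of its group, at 99.7 CPM against 30.9 to 36.8 CPM in the other Has2+/- OVA libraries. The gap to the nearest library was 0.914 of the range of the group, above the critical value of Dixon's test. The same library was the lowest of its group for Tsc22d3 (111 CPM), Zbtb16 (98.5 CPM) and Klf9 (118 CPM). The 8 genes in 4 groups gave 32 such tests, of which 1 was past the critical value, where chance gives about 1 in 20.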

How the results depend on the processing

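No paired analysis was possible because the columns of the table carry no replicate number. The number of the 8 genes called in WT OVA against WT saline mice was 6 in a fit of only the groups compared (adding Fkbp5, Zbtb16 and Cdkn1a), 5 without libraries 8, 9 and 19, and 2 to 3 with 1 library left out. In Has2+/- OVA against Has2+/- saline mice it was 0 with only the groups compared, 3 without libraries 8, 9 and 19, and 2 to 4 with 1 library left out, the lowest without saline library 6. The counts of the other 4 comparisons stayed within 1.5 times their values. In the fits of only the groups compared the log2 fold changes hardly moved. That of Tsc22d3 was -1.31 in WT mice in both fits, and -1.28 in Has2+/- mice against -1.29 in the fit of all groups. The fit of all groups takes the spread of a gene from every group, the others from the groups compared. The part of this in the counts was not tested.

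Without libraries 8, 9 and 19, log2 fold changes turned sign for Cdkn1a (-0.32) in Has2+/- OVA against Has2+/- saline mice, for Mt1 (-0.0054) in Has2+/- OVA against WT saline mice, for Fkbp5 (0.54), Tsc22d3 (0.086), Zbtb16 (0.28), Sgk1 (0.082) and Klf9 (0.12) in Has2+/- saline against WT saline mice, and for Fkbp5 (-0.071), Tsc22d3 (-0.52), Sgk1 (-0.10) and Klf9 (-0.28) in the interaction. With 1 library left out, these turned sign: in Has2+/- OVA against Has2+/- saline mice Fkbp5 (-0.82 to 0.19), Mt1 (-0.0079 to 0.34), Mt2 (-0.36 to 0.070) and Cdkn1a (-0.14 to 0.66), in Has2+/- OVA against WT saline mice Mt1 (-0.069 to 0.058), Mt2 (-0.099 to 0.096) and Cdkn1a (-0.015 to 0.33), and in Has2+/- OVA against WT OVA mice Fkbp5 (-0.12 to 0.52) and Sgk1 (-0.14 to 0.025). The same held in Has2+/- saline against WT saline mice for Fkbp5 (-0.57 to 0.21), Mt1 (-0.33 to 0.018), Mt2 (-0.089 to 0.34) and Cdkn1a (-0.48 to 0.32), and in the interaction for Fkbp5 (-0.086 to 0.93), Tsc22d3 (-0.22 to 0.36), Zbtb16 (-0.65 to 0.015), Klf9 (-0.12 to 0.21) and Mt1 (-0.21 to 0.14). None of the values that turned was called. Precision is limited by 4 to 5 mice per group and, for Mt2, by 17 to 55 counts per library.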
